A study of Mus musculus with 18 samples.

Results

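The comparison set 3 mice that had been given a mixture of pesticides against 3 mice that had been given water, which are 6 of the 18 arrays in a study of the mouse jejunum. The members were taken from the titles of the samples. ADI mice received, by daily gavage for 20 days, a solution of 9 pesticides used in growing potatoes conventionally, each at its acceptable daily intake, the amount that regulators regard as safe to take in every day over a lifetime. Ctr mice received water by the same route. The design text calls the ADI mice another batch, dosed alongside the other groups, and whether they differed in anything but treatment was not tested. All were male BALB/cOlaHsd mice, 8 weeks old at day 0, on standard chow with free access to water, and were sampled on day 20, 3 from each group of 12. The labels name neither the pesticides nor their amounts. Enterocytes were scraped from the jejunum, and the RNA of each mouse was labelled with Cy3 and put on its own 1-colour Agilent array.

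Enterocytes are the absorbing cells that line the small intestine and are the first cells to meet chemicals taken by mouth. They are known for uptake of fat and sugar, for lipoprotein secretion, and for conjugating foreign compounds before these reach the blood. By the functional groups of the authors' deposited table, the largest numbers of named genes with a value on every array were 13 related to cancer, 9 of the nervous system and 8 of metabolism.

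A feature, the spot on the array that reads 1 transcript, entered the analysis when it had a value on all 18 arrays, which 5021 of 6914 features did. Of the 51 genes named by the authors' deposited table of fold changes, 43 were among them, and the other features carry only a number. The authors chose those genes on these same samples, so their directions are not independent evidence. Of 13 pathway lists, 11 held at least 1 named gene and none held more than 4; the lists of cytochromes with xenobiotic receptors and of oxidative stress genes held 0. Of 14 lists of cell type markers 3 held a named gene, namely Apoa1 for enterocytes, Cd2 for T cells and Sv2b for neurons and glia, so the makeup of the scrapings could not be checked further. In such bulk RNA, fewer cells of a type and less RNA per cell cannot be told apart.

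The 6 arrays differed in brightness. The median intensity over the 5021 features was 250, 147 and 37 in ADI mice 1 to 3 and 168, 184 and 256 in Ctr mice 1 to 3. ADI mouse 3 had the lowest of the 6 values in 4439 features (88.4%), had 25.6% of its values under 16, and ranked features less like the other arrays, with Spearman correlations across features of 0.78 to 0.87. Among the other 5 arrays the lowest such correlation was 0.93. The mean log2 median was 6.79 ± 1.42 among ADI mice and 7.64 ± 0.32 among Ctr mice (SD, n = 3 each), a difference of -0.85 (exact permutation test, two-sided, p = 0.40; the smallest p that 3 against 3 arrays allow is 0.10). Without ADI mouse 3 that difference was -0.056. Values are therefore given as multiples of the array's median and, for differences, as log2 with each array centred on its median. For every feature the difference as deposited is the centred one shifted by -0.85, so that Acat3 stood at -1.01 centred and -1.86 as deposited, Apoa1 at -0.31 and -1.16, Noc4l at 1.00 and 0.16, Aebp2 at 1.20 and 0.35, and Cd2 at 0.99 and 0.14. The median feature lay at -0.90 as deposited and at -0.054 after centring.

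**Figure D1:**
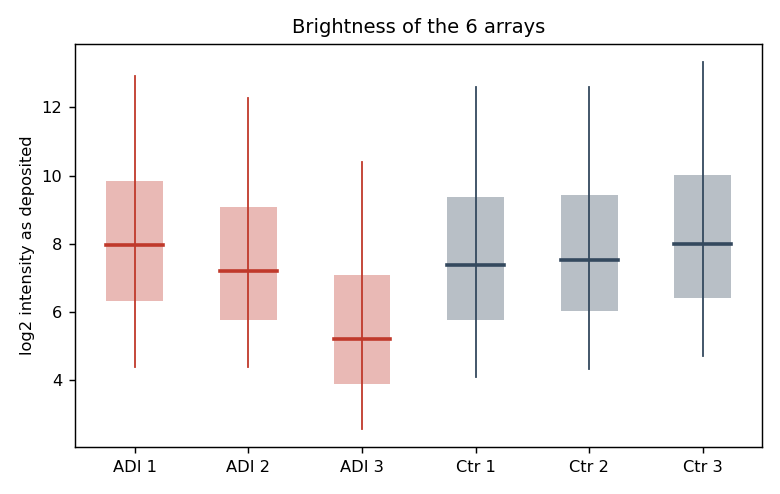
Log2 intensity as deposited (vertical axis) on the 3 ADI and 3 Ctr arrays; boxes span the 25th to 75th percentile, thick lines mark the median and thin lines the 5th to 95th percentile of 5021 features. ADI mouse 3, with a median intensity of 37, lies below the other 5 arrays.

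Centring did not remove a dependence on brightness. When features were put into 10 equal bins by mean intensity, the median centred difference between ADI and Ctr mice was 0.44 in the dimmest bin and -0.18 in the brightest. For ADI mouse 3 alone against the Ctr mean, those medians were 1.07 and -0.42. Of the 43 named genes, 25 lay in the brightest bin, so small negative differences among them have to be read against -0.18.

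Across all features, none passed the test of a difference between ADI and Ctr mice after centring. In limma, a linear model with moderated variances, 0 of 5021 features (0%) passed an adjusted p of 0.05, the smallest adjusted p being 0.80, and 152 (3.03%) had an unadjusted p under 0.05, 69 higher (1.37%) and 83 lower (1.65%). As deposited 1 unnamed feature passed (0.0199%), with 44 (0.876%) at an unadjusted p under 0.05, 7 higher (0.139%) and 37 lower (0.737%). The fold rule of the deposited table asks that every ADI mouse lies above 2 times, or every ADI mouse below 0.5 times, the mean of the Ctr mice. On centred values 13 features met it as higher (0.259%) and 9 as lower (0.179%), and as deposited 0 did so as higher and 23 as lower (0.458%). The 3 ADI values lay wholly above the 3 Ctr values in 154 features (3.07%) and wholly below them in 485 (9.66%) after centring. That split moved with the scaling, to 257 above and 243 below at the 75th percentile, 199 and 280 with cyclic loess, and 1 (0.0199%) and 191 as deposited.

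Among the 43 named genes, 0 passed the adjusted threshold, with adjusted p values in limma of 0.80 to 0.83, and 5 had an unadjusted p under 0.05, namely Prkar1a, Ufm1 and Plcb4 toward higher and Acat3 and Nyap1 toward lower values. All 5 belong to the 18 genes that the authors' deposited table lists for ADI mice and that had a value on every array. Those 18 were picked by the authors on this same contrast, so their counts are a description only. The 3 genes Prkar1a, Ufm1 and Plcb4 also met the fold rule after centring, and 0 named genes met it as deposited. A positive difference was found in 23 of the 43 after centring, against 45.6% of all features, and in 18 as deposited, against 9.08% of all features.

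**Figure D2:**
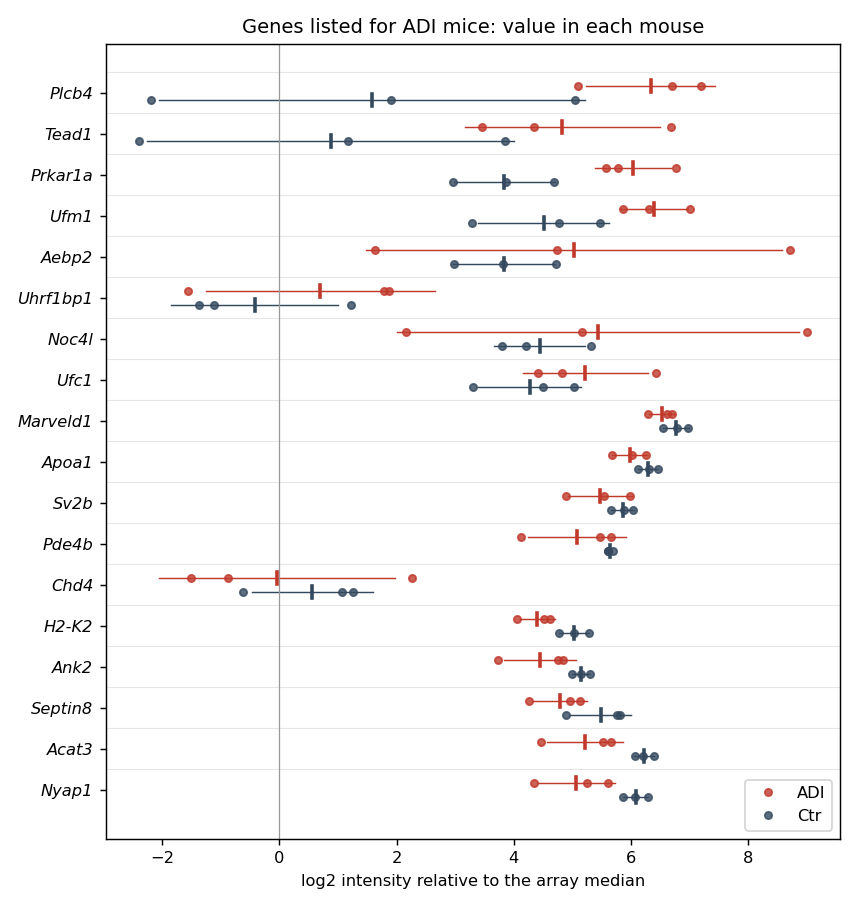
Log2 intensity relative to the array median (horizontal axis) of the 18 genes listed for ADI mice, ADI above Ctr for each gene; points are mice, short bars are group means and thin lines are SD (n = 3). The ADI and Ctr points are apart in Prkar1a, Ufm1 and Plcb4 on the high side, and in H2-K2, Ank2, Acat3 and Nyap1 on the low side.

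Of the second messenger genes, Prkar1a and Plcb4 lay above every Ctr mouse in every ADI mouse after centring. Prkar1a (feature 33938) encodes a regulatory subunit that holds protein kinase A inactive until cyclic AMP binds. Its intensities were 11909, 8051 and 4060 in ADI mice 1 to 3, against 2457, 1436 and 6628 in Ctr mice 1 to 3, which is 47.6, 54.8 and 109.7 times the array median in ADI mice and 14.6, 7.80 and 25.9 times in Ctr mice. Every ADI mouse stood above every Ctr mouse once brightness was taken into account, whereas the raw intensities overlapped. The centred log2 mean was 6.04 ± 0.64 among ADI mice and 3.84 ± 0.87 among Ctr mice (SD, n = 3 each), a difference of 2.20 (SE 0.53, limma adjusted p 0.80, unadjusted 0.0055), and 1.35 as deposited. With any 1 array left out the centred difference stayed between 1.76 and 2.63.

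Plcb4 (feature 7153), a phospholipase C that splits a membrane phosphoinositide into diacylglycerol and inositol trisphosphate, had the largest centred difference of the named genes, 4.75, but also the largest error, with an SE of 1.76. It stood at 146.5, 34.4 and 104.9 times the array median in ADI mice, against 3.75, 0.217 and 33.1 times in Ctr mice. The groups were apart, but narrowly, since Ctr mouse 3 came close to ADI mouse 2, while Ctr mouse 2 read below the median of its array. The difference was 2.86 without Ctr mouse 2 and 6.49 without Ctr mouse 3, and 3.91 as deposited. Its unadjusted p in limma was 0.034 and its adjusted p 0.80.

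Pde4b (feature 33879) encodes a phosphodiesterase that breaks down cyclic AMP, on the same pathway as Prkar1a. It read 50.8, 44.2 and 17.4 times the array median in ADI mice and 49.0, 48.7 and 51.7 times in Ctr mice. ADI mouse 1 lay among the Ctr mice, ADI mouse 2 slightly below them and ADI mouse 3 far below, and the difference of -0.55 was -0.071 without that mouse.

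Ufm1 and Ufc1 work in ufmylation, in which the small ubiquitin-like protein Ufm1 is passed through the conjugating enzyme Ufc1 onto target proteins, a system known for its part at ribosomes of the endoplasmic reticulum. Ufm1 (feature 10028) had intensities of 32422, 8607 and 2953 in ADI mice and 4578, 1802 and 11369 in Ctr mice, or 129.7, 58.6 and 79.8 times the array median in ADI mice, against 27.2, 9.79 and 44.4 times in Ctr mice. The groups did not overlap after centring, with a difference of 1.89 (SE 0.61, limma unadjusted p 0.020, adjusted p 0.80), and overlapped as deposited, with a difference of 1.05. It ranged from 1.28 to 2.37 with 1 array left out. Ufc1 (feature 29307) read 86.4, 28.2 and 21.4 times the median in ADI mice and 22.5, 9.89 and 32.5 times in Ctr mice. Here the groups overlapped, ADI mouse 1 alone standing above all Ctr mice, and the difference was 0.95 (SE 0.66), 0.10 as deposited and 0.35 without ADI mouse 1. The other 6 genes of that list had no named feature.

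Relative to the array median, Ctr mouse 2 was the lowest and Ctr mouse 3 the highest of the Ctr mice in 15 of the 43 named genes, Prkar1a, Ufm1, Ufc1, Plcb4 and Tead1 among them, and in 19.9% of all features. Tead1 (feature 28796) is a DNA-binding partner of the Hippo pathway's effector Yap. It read 103.5, 10.98 and 20.4 times the median in ADI mice and 2.26, 0.190 and 14.5 times in Ctr mice. ADI mouse 2 lay below Ctr mouse 3, so the groups overlapped, although each ADI mouse stood above the Ctr mouse of its own number, and the difference of 3.96 (SE 1.65, unadjusted p in limma 0.051) was 2.32 without Ctr mouse 2 and 5.44 without Ctr mouse 3. As deposited and without ADI mouse 3, Plcb4 and Tead1 were 2 of the 11 features of 5021 past the adjusted threshold, with adjusted p values in limma of 3.53e-10 and 1.27e-08, and without Ctr mouse 3 Plcb4 was 1 of 3, with 0.0105. The centred fits without those arrays called 0 features, with adjusted p values for Plcb4 of 1.00 and 0.90. As deposited with all 6 arrays, limma gave every feature the same SE of 0.99, which does not weigh a gene's own spread. Whether this also held with 1 array left out was not examined, so no conclusion about Plcb4 or Tead1 is drawn from those adjusted p values. The SD of log2 intensity as deposited over the 3 Ctr mice was 3.86 for Plcb4 and 3.36 for Tead1. Acvr1b (feature 21618), a type I receptor of activin, read 0.248, 0.959 and 7.97 times the median in ADI mice and 0.333, 0.364 and 0.797 times in Ctr mice, and its difference of 1.43 was 0.09 without ADI mouse 3.

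**Figure D3:**
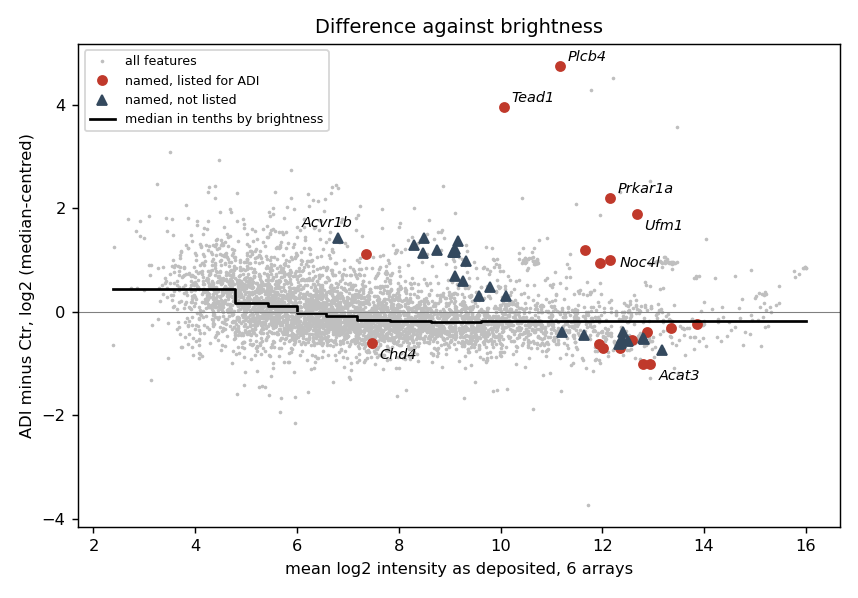
Median-centred log2 difference, ADI minus Ctr (vertical axis), against mean log2 intensity as deposited over the 6 arrays (horizontal axis); grey points are all 5021 features, circles and triangles are the 43 named genes, and the stepped line is the median in each of 10 bins. Plcb4 lies at 4.75 and Tead1 at 3.96, and the stepped line runs from 0.44 in the dimmest bin to -0.18 in the brightest.

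Among genes toward lower values, Acat3 and Nyap1 differed most. Acat3 (feature 21811) is an acetyl-CoA acetyltransferase, an enzyme that joins or splits acetyl units. Its intensities were 11512, 7410 and 819 in ADI mice and 11253, 15502 and 18972 in Ctr mice, and relative to the median 46.0, 50.4 and 22.1 times in ADI mice, against 67.0, 84.2 and 74.1 times in Ctr mice. All 3 ADI mice lay below the Ctr mice after centring, by -1.01 on average (SE 0.36, unadjusted p in limma 0.030), with -0.63 without ADI mouse 3. Nyap1 (feature 38308), an adaptor for phosphoinositide 3-kinase known from neurons, gave 38.3, 49.0 and 20.3 times the median in ADI mice and 58.6, 78.4 and 67.5 times in Ctr mice, a difference of -1.01 (SE 0.37, unadjusted p in limma 0.033). As deposited, Nyap1, H2-K2 and Sv2b were the 3 named genes whose ADI values all lay below the Ctr values. That held for 3.8% of all features and for 41 of the 502 features of the brightest bin, where all 3 genes lie. Of these genes Sv2b overlapped after centring.

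The 9 genes that the authors' deposited table lists as lower all had a negative difference, from -1.01 to -0.23 after centring, with a median of -0.63 against -0.18 for all features of the brightest bin, where all 9 lie. In that bin 333 of 502 features had a negative difference after centring. H2-K2 (feature 26642) is of the class I histocompatibility family, whose members share sequence, and its feature is matched to a non-coding RNA record. H2-K2 read 16.7, 24.7 and 22.9 times the median in ADI mice and 27.4, 32.5 and 39.2 times in Ctr mice. Its groups were apart, with a difference of -0.63 (SE 0.26, unadjusted p in limma 0.051). Ank2, an ankyrin that anchors membrane proteins, stood at -0.70 and Septin8, a filament-forming GTPase, at -0.70, and without ADI mouse 3 at -0.35 and -0.44. The groups were apart in Ank2 and overlapped in Septin8. With cyclic loess those of H2-K2 and Ank2 overlapped too. Sv2b, a synaptic vesicle protein, was at -0.39 and Marveld1 at -0.23, with overlapping groups in both.

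Taken by replicate number, 16 of the 43 named genes were lower and 7 higher in all 3 pairs of ADI and Ctr mice after centring, against 22.6% and 10.7% of all features. These pair shares were not counted for the brightest bin, where 25 of the 43 lie, so they are no measure of an excess. Septin8, Sv2b, Apoa1 and Nat2, whose groups overlapped, were among the 16. Without regard to number, 10 of the 43 named genes lay wholly below and 4 wholly above the Ctr mice after centring, against 9.66% and 3.07% of all features and against 26.3% and 2.19% of the brightest bin. When arrays were instead aligned by cyclic loess, which follows brightness, 3 lay below, namely Acat3, Nyap1 and Gdf1, against 5.58% of all features and 8.37% of the brightest bin. The 4 above were the same under both, Prkar1a, Ufm1, Plcb4 and Crk, an adaptor of tyrosine kinase signalling named here after its values were seen, whose difference was 0.31.

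Apoa1 and Slc10a1, genes of fat and bile acid handling, overlapped between ADI and Ctr mice. Apoa1 (feature 20313), a lipoprotein component that enterocytes secrete, had intensities of 16219, 11304 and 1886 in ADI mice and 13296, 16287 and 17841 in Ctr mice. Relative to the median it stood at 64.9, 76.9 and 51.0 times in ADI mice, against 79.1, 88.5 and 69.7 times in Ctr mice. ADI mouse 2 lay within the Ctr range, and the difference was -0.31 (SE 0.25). Slc10a1, a bile acid transporter known from liver, differed by 1.20 (SE 1.20), and by -0.20 without ADI mouse 3. Bmp7, a growth factor of the bone morphogenetic family, lay below the Ctr mice after centring, at -0.61 (SE 0.33), but overlapped them with cyclic loess.

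Nat2 (feature 37799), an arylamine acetyltransferase, was the only named gene of 10 on the list of enzymes that conjugate foreign compounds. It read 25.03, 22.4 and 11.1 times the median in ADI mice and 26.0, 24.1 and 25.7 times in Ctr mice. ADI mouse 1 was within the Ctr range, ADI mouse 2 just under it and ADI mouse 3 well under it. The difference of -0.46 (SE 0.35, unadjusted p in limma 0.23) was -0.09 without ADI mouse 3.

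Of the 3 chromatin genes, Chd3, Chd4 and Aebp2, none passed the test. Chd4 (feature 15041), a helicase of the nucleosome remodelling and deacetylase complex NuRD, had intensities of 1196, 80 and 13 in ADI mice and 402, 119 and 534 in Ctr mice. ADI mouse 1 had the highest and ADI mouse 3 the lowest of the 6, and the difference of -0.61 (SE 1.06) was 0.13 without ADI mouse 3. Its relative Chd3 (feature 6188) was brighter and steadier, at 46.5, 50.8 and 28.0 times the median in ADI mice and 65.5, 52.0 and 54.8 times in Ctr mice, a difference of -0.50 (SE 0.30) with the groups just apart. With cyclic loess the Chd3 groups overlapped.

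Aebp2, a cofactor of Polycomb repressive complex PRC2, and Noc4l, a factor of small ribosomal subunit assembly, had the largest SD over the ADI mice of the named genes after centring, 3.55 for Aebp2 and 3.44 for Noc4l, and 2.17 and 2.05 as deposited, where Chd4 had 3.28 and Tead1 2.68. Noc4l (feature 33200) had intensities of 1115, 5295 and 19098 in ADI mice and 3122, 2557 and 10187 in Ctr mice, and Aebp2 (feature 10260) 779, 3938 and 15679 in ADI mice and 2358, 1449 and 6758 in Ctr mice. In both, ADI mouse 3, the dimmest array, gave the highest value and ADI mouse 1 the lowest. The centred differences were 1.00 (SE 1.64) for Noc4l and 1.20 (SE 1.70) for Aebp2, and without ADI mouse 3 they were -0.78 and -0.65. Of the 5020 other features, Aebp2 had the profile over the 6 arrays nearest to that of Noc4l, with a root mean square difference of 0.17 in log2 intensity, and the next feature, unnamed, was at 0.30.

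Because the profiles of these 2 genes were so close, the 250 bases before their transcription starts are shown, from RefSeq on GRCm38.p6, 5′ to 3′ on the gene's strand. Noc4l lies at chr5:110653383-110653632 (minus strand, 1 start listed) and Aebp2 at chr6:140622413-140622662 (plus strand, the first of 3 starts listed). Capitals mark matches on either strand to GCGTG, the core bound by the dioxin receptor, to TGACNNNGC, the core of the antioxidant response element, and to TGACGTCA, the cyclic AMP response element.
Noc4l: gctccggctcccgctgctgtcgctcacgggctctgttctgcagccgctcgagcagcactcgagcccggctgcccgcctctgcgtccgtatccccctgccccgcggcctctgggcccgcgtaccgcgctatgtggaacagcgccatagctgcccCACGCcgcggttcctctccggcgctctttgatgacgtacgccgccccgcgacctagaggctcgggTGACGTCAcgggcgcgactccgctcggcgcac
Aebp2: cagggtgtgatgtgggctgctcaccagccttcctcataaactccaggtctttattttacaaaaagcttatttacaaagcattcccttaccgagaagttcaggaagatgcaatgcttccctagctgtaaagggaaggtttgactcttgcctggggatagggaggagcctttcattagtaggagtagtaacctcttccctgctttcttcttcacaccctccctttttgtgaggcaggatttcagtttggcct
In the stretches shown, Noc4l holds 1 match to GCGTG, on the opposite strand, and 1 to TGACGTCA, which do not overlap. Aebp2 holds 0 of the 3 motifs at the first of its 3 listed starts, and its other starts are not shown. Over 32851 promoters of this length GCGTG was present in 28.2%, TGACNNNGC in 10.2% and TGACGTCA in 1.55%. In the 56 promoters listed for 29 of the named genes, the shares were 23.2%, 3.57% and 5.36%. These matches describe letters only.

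Relative to the array median, 3 of the 4 immune genes had their highest value in ADI mouse 3. Csf2 (feature 38320), which encodes the growth factor GM-CSF, had intensities of 356, 557 and 1140 in ADI mice and 320, 353 and 1056 in Ctr mice, and so differed little as deposited, by 0.31. Card14 (feature 24326), a scaffold of NF-kB signalling, had 277, 395 and 777 in ADI mice and 171, 266 and 564 in Ctr mice, and Cd2 (feature 8561), an adhesion receptor of T cells, had 664, 585 and 790 in ADI mice and 530, 445 and 970 in Ctr mice. The intensities of the groups overlapped in all 3. Their centred differences of 1.15 (SE 1.10), 1.42 (SE 1.05) and 0.99 (SE 0.77) were -0.09, 0.22 and 0.08 without ADI mouse 3.

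ADI mouse 3 was the highest of the 6 arrays in 11 of the 43 named genes (25.6%) and in 4.66% of all features. Besides Noc4l and Aebp2 these are Csf2, Card14, Acvr1b, Slc10a1, Orc5, a subunit of the origin recognition complex, U2af2, a splicing factor, Tmem145, Rasgef1a and Cadm2, the last 2 named after their values were seen. In these 9, ADI mouse 3 stood at 7.97 to 40.7 times its array median, ADI mouse 1 at 0.248 to 1.48 times and ADI mouse 2 at 0.959 to 4.19 times, and Ctr mouse 3 at 0.797 to 4.41 times. Their centred differences, 1.14 to 1.43, rest on that mouse, since without it they lay between -0.20 and 0.22. The part of array brightness in them was not tested.

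**Figure D4:**
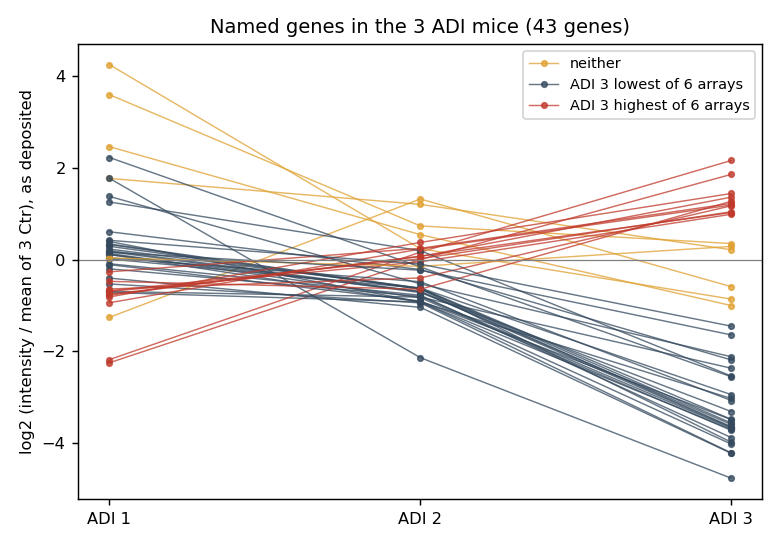
Log2 ratio of each ADI mouse to the mean of the 3 Ctr mice, as deposited (vertical axis), for the 43 named genes, with 1 line per gene over ADI mice 1 to 3. The 11 genes highest in ADI mouse 3 run upward there, and the 26 genes lowest in it run downward.

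Thap1 and Bmf, genes linked to apoptosis, had their lowest intensities in ADI mouse 3. So did 88.4% of all features and 89.0% of the brightest bin, where both genes lie. Thap1 (feature 28176), a pro-apoptotic DNA-binding factor, read 70.1, 58.2 and 27.1 times the median in ADI mice and 80.5, 79.9 and 80.0 times in Ctr mice. The Ctr mice were almost equal and all ADI mice lay below them, by -0.74 (SE 0.38), and by -0.33 without ADI mouse 3. Bmf (feature 2939), a pro-apoptotic member of the Bcl-2 family, gave -0.53 (SE 0.33) with the groups apart, and -0.21 without ADI mouse 3. With cyclic loess the groups overlapped in both Thap1 and Bmf. After centring, 26.3% of the features of the brightest bin lay wholly below the Ctr mice. Gdf1, a growth factor of the transforming growth factor family, gave -0.60 (SE 0.26), and H2al2b, a histone variant gene of the testis, -0.56 (SE 0.38).

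Uhrf1bp1 (feature 39935) read 0.340, 3.44 and 3.65 times the array median in ADI mice and 0.387, 2.32 and 0.461 times in Ctr mice. ADI mouse 1 was below all Ctr mice and the other two ADI mice above them, for a difference of 1.12 (SE 1.13). The 10 named genes outside the rule for naming, with Crk, Rasgef1a and Cadm2 among them, had differences from -0.51 to 1.21, each with a limma adjusted p of 0.80.

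Of the features without a name, 40067 and 13600 had the smallest p toward higher values, and 39929 and 12608 toward lower. Feature 40067 read 0.164, 0.163 and 0.270 times the median in ADI mice and 0.0417, 0.0380 and 0.0625 times in Ctr mice, a difference of 2.06 (SE 0.32), but its intensities of 41, 24 and 10 in ADI mice and 7, 7 and 16 in Ctr mice are low. Feature 12608 was bright, at 40.2, 68.6 and 45.5 times the median in ADI mice, against 97.3, 117.5 and 105.0 times in Ctr mice, a difference of -1.09 (SE 0.27). The differences of 13600 and 39929 were 1.29 (SE 0.22) and -0.93 (SE 0.21), and all 4 had an adjusted p of 0.80 in limma. The feature called as deposited, 36294, had intensities of 14203, 10 and 2266 in ADI mice and 11868, 16897 and 21887 in Ctr mice, so the low value is that of ADI mouse 2 alone. As deposited, limma gave every feature the same SE of 0.99, so that its call did not weigh the spread of this feature itself; after centring the difference was -3.73 with an SE of 2.61.

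The deposited table of fold changes was set against the intensities mouse by mouse. It lists 22 genes for ADI mice, 9 higher and 13 lower, and 18 of these had a value on every array. The direction of the group difference was the same in both sources for 17 of the 18, 8 listed higher and 9 listed lower, as deposited, centred and by cyclic loess. Chd4 was the exception, with 1.63, 1.496 and 1.54 in the authors' deposited table for ADI mice 1 to 3, against ratios to the Ctr mean of 1.77, -2.14 and -4.76 in the intensities as deposited. Per mouse, 41 of 54 cells had the same sign as deposited and 46 after centring. The authors chose these genes on this same contrast, so like directions and signs are not an independent check. A negative difference as deposited was found in 4565 of 5021 features and in 454 of the 502 of the brightest bin, where the 9 listed lower lie. After centring it was found in 2730 of all features and in 333 of that bin.

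The mice of the table were far more alike than those of the intensities. The median SD over the 3 ADI mice was 0.14 in the authors' deposited table, 1.93 in intensities as deposited and 0.65 after centring, and the SD was larger in the centred intensities for 18 of 18 genes. Noc4l is an example, at 1.27, 1.19 and 1.26 in the authors' deposited table and at -2.25, 0.002 and 1.85 in the intensities as deposited. The header states that folds between 0.5 and 2 were set to 0, yet 27 of the 66 cells of listed genes in the authors' deposited table lie between -1 and 1 without being 0, and in 6 genes all 3 cells do. The source of the table's values is not given in the sources used here.

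**Figure D5:**
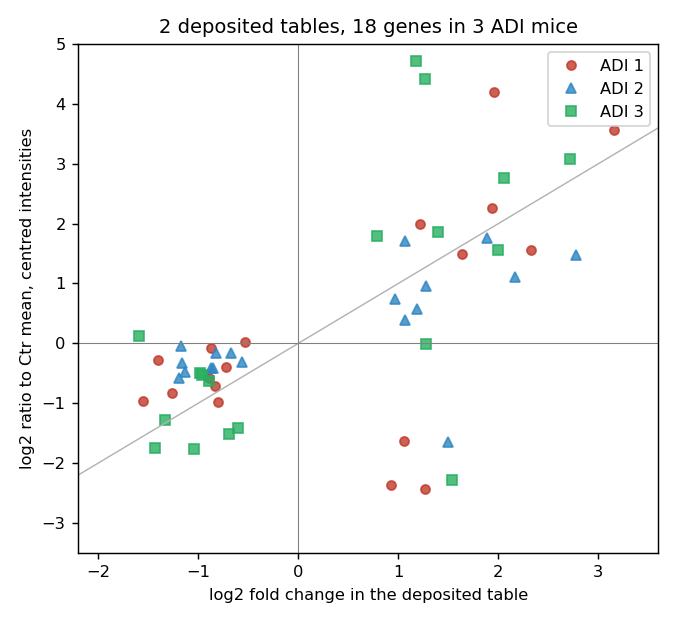
Log2 ratio to the Ctr mean from centred intensities (vertical axis) against the log2 fold change in the authors' deposited table (horizontal axis) for 18 genes in ADI mice 1 to 3; the diagonal marks equal values. Points in the lower right quadrant, with a positive table value and a negative ratio, belong to Chd4, Noc4l, Aebp2, Uhrf1bp1 and Ufc1.

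Set beside the potato flour groups (3 mice each), the centred log2 mean of Prkar1a was 6.04 ± 0.64 in ADI mice, 4.85 ± 0.41 in PC mice (conventional potatoes), 4.14 ± 1.09 in PCS mice (stored conventional) and 3.84 ± 0.87 in Ctr mice. Plcb4 stood at 6.34 ± 1.09 in ADI mice, 6.56 ± 1.37 in PC mice, 5.96 ± 0.40 in PCS mice and 1.59 ± 3.64 in Ctr mice, and Acat3 at 5.22 ± 0.65 in ADI mice, 5.07 ± 0.62 in PC mice, 5.04 ± 0.12 in PCS mice and 6.22 ± 0.17 in Ctr mice. Plcb4 and Acat3 in ADI mice were thus near PC and PCS mice, but not near these groups alone. POS mice (stored organic), 1 of them sampled on day 27, stood at 5.13 ± 1.01 for Plcb4 and 5.37 ± 0.36 for Acat3.

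For organic potatoes, PO array 2 stood apart, with a median intensity of 5 and 84.2% of its values under 16, and POS mouse 3 (stored organic) was sampled on day 27. Both are left out of the values that follow. Prkar1a stood at 2.13 and 0.48 in the other PO mice and at 5.69 and 2.70 in POS mice. Plcb4 stood at 1.91 and 0.46 in PO mice and at 6.15 and 4.13 in POS mice, and Acat3 at 5.83 and 6.15 in PO mice and at 5.07 and 5.77 in POS mice. With all 3 arrays, the PO means were 3.28 ± 3.52 for Prkar1a, 1.64 ± 1.06 for Plcb4 and 4.49 ± 2.61 for Acat3. All groups share the same 3 Ctr mice, and these differences between exposures were not tested.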

How the data were processed

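Messenger RNA of jejunal enterocytes was measured on 1-colour Agilent arrays read with Agilent Feature Extraction, per the submitters' processing notes. Its version, the signal column read and any background step were not found in the labels or headers. Intensity values were deposited as whole numbers, reach 65501 on the 6 arrays used and differ in median from array to array. A second table made by the authors gives a log2 ratio to control for each mouse and sorts genes by function, per the file headers. All 51 gene names matched a symbol of the RefSeq table for GRCm38.p6.

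In the fits of all arrays, used as alternatives, POS mouse 3 was sampled on day 27 and all others on day 20. Features with a blank in any of the 18 columns (1893) were left out. Intensities were set to at least 1, log2 transformed and centred on each array's median over the 5021 features kept. A linear model over the ADI and Ctr arrays alone was fitted with limma 3.58.1 and eBayes under R 4.3.3, and p-values were adjusted by Benjamini-Hochberg over the 5021 features at 0.05. Array brightness was compared by an exact permutation test (scipy 1.17.1). On simulated data for this comparison with 5021 features, 18% of 2-fold and 81% of 8-fold changes were recovered. The simulation drew independent normal noise with each feature's own SD and held no dependence on brightness. It raised many features at once, all upward, and the adjusted threshold is easier to pass when many features change. The shares recovered on the real arrays may therefore be lower. The number of arrays limits the precision.

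The sample titles gave group and replicate number. The titles do not say that equal numbers pair the mice. Deviations of same-numbered ADI and Ctr mice from their group means correlated at 0.41, 0.52 and 0.31 across features. Mice of unlike number were not compared in this way, so these values do not show that the numbers pair the mice. The main fit had no block, and a fit with the replicate number as a block was run as an alternative. No 2 of the 6 arrays held the same values.

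Genes named in the text are those the deposited table lists for ADI mice, the 4 highest and 4 lowest of the other named genes, genes past the fold rule, and members of the pathway lists. The members, lists and tests were chosen with earlier results of these data known. Alternatives covered scaling, floor, filter, arrays in the fit, variance model, block and left-out arrays; cyclic loess was added after seeing the data.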

Additional observations from a re-analysis of the deposited data

How the results depend on the processing

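The count of features past the adjusted threshold was 0 after centring and in every setting run except as deposited, where it was 1, and as deposited without 1 array, where it ranged up to 11 (1 without ADI mouse 1, 11 without ADI mouse 3, 3 without Ctr mouse 3, 0 otherwise). The fit with the replicate number as a block called 0 features, centred and as deposited, with a smallest adjusted p in limma of 0.70 and 0.11, and changed no call among centred values. Array weights also called 0, where 1292 features had a p under 0.05 before adjustment and the lowest adjusted p was 0.066. As deposited, 0 features met the fold rule as higher and 23 as lower, and 1 lay wholly above and 191 wholly below the Ctr mice. Those last counts were 257 and 243 when scaled to the 75th percentile, and the count below was 319 with quantile scaling, 280 with cyclic loess and 280 without dim features, while that above was 319 with all 6914 features. Without dim features the fold rule gave 14, of them 4 lower, and against the geometric mean of the Ctr mice 25 higher and 5 lower.

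Leaving out 1 array, centred or as deposited, gave 16 to 303 features past the fold rule, 1 to 183 higher and 7 to 299 lower, and 1 to 786 wholly above and 194 to 2884 wholly below; after centring the fold rule count was 217 without ADI mouse 1, 62 without ADI mouse 2 and 47 without Ctr mouse 3. The brightness difference ranged from -1.43 to -0.056. The settings that add other groups, a block, or trend and robust variances leave a gene's difference unchanged, so they could not reverse it. Acat3 stood at -1.01 in each of these after centring. Scaling to the 75th percentile, fitting all rows and leaving out dim features each shift every gene by the same amount. They could reverse only small differences, and Acat3 stood at -0.92, -0.85 and -0.93 in them. The values counted next are therefore not separate checks. Of the 33 genes named by rule, 22 kept their direction in all 26 settings and none of the 462 values with all 6 arrays reversed. With 1 array left out 27 of 396 did, in 11 genes: Aebp2 (-0.70 to 2.90), Cd2 (-0.088 to 1.59), Chd4 (-3.19 to 0.13), Csf2 (-0.14 to 2.13), Noc4l (-0.83 to 2.65), Orc5 (-0.26 to 2.08), Slc10a1 (-0.26 to 2.05), Tmem145 (-0.054 to 2.44), U2af2 (-0.0665 to 2.43), Ufc1 (-1.09 to 1.35) and Uhrf1bp1 (-0.47 to 2.25). The cause was not tested.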

Other observations

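A set of features shared 1 pattern over the 6 arrays. With root mean square differences under 0.25 in log2 intensity, a limit chosen after seeing the data, 56 of the 5020 other features (1.12%) followed Csf2, with mean log2 intensities from 4.32 to 13.47. Named among them were Cadm2, Rasgef1a, Orc5, Tmem145, Card14 and Acvr1b, and 50 had no name. Cadm2 was nearest, at 0.06, and Rasgef1a next, at 0.08. In this pattern Ctr mouse 3 and ADI mouse 3 are high, although the first is the brightest and the second the dimmest of the 6 arrays.

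The 1893 features with a blank in a potato column have values on all 6 ADI and Ctr arrays, with medians of 645, 336 and 65 in ADI mice and 437, 461 and 660 in Ctr mice. They hold 8 named genes. Of the 4 listed for ADI mice in the authors' deposited table, all as lower, Apom, a lipoprotein component, differed by -0.61 (SE 0.94), Shank3, a synaptic scaffold, by -0.39 (SE 0.27), Trbv13-1, a T cell receptor segment, by -0.36 (SE 0.30) and Katnal2, a microtubule-severing protein, by -0.30 (SE 0.23), when all 6914 features were fitted and centred together. The other 4 were Neil3, a DNA glycosylase, at 0.81 (SE 0.40), Bop1, a ribosome biogenesis factor, at 0.35 (SE 0.23), S100a14 at 0.01 (SE 0.28) and Plscr1 at -0.15 (SE 0.20). None of the 8 passed the test in limma, with adjusted p values of 0.82 to 0.99.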
